A study of Homo sapiens with 3 samples.

Results

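The 49 genes described here encode the core proteins of the major spliceosome. They were chosen by name, as the rows of the deposited gene count table whose symbol is on a list of subunits. The choice was not made by how their levels differed, but earlier results of these data were known. These genes make up 49 of the 57268 identifiers in that table. 48 were found by symbol, and LSM8 was found by its identifier because the table carries it under an older symbol, NAA38. By complex they are 7 Sm proteins, 7 LSm proteins, 3 proteins of the U1 particle, 13 of the U2 particle and branch site recognition, 10 of the U4/U6.U5 tri-snRNP and 9 of the PRPF19 complex and the later steps of splicing.

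The spliceosome removes introns from pre-messenger RNA. It is built on each intron from small nuclear ribonucleoproteins, particles in which a small nuclear RNA carries a ring of Sm or LSm proteins and further proteins of its own. U1 marks the start of the intron and U2 its branch site, the U4/U6.U5 tri-snRNP then joins, and helicases together with the PRPF19 complex rearrange the assembly so that it can cut and join the RNA.

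RNA was sequenced from HEK 293T cells, an established line of human embryonic kidney origin, in 3 libraries with 1 library per group. The source and cell line labels give HEK 293T, while the titles write HEK293. The control was labelled wild type without overexpression, the second library came from cells with ADAR2 overexpression alone, and the third from cells with ADAR2 and SRSF9 overexpression together. ADAR2, the product of ADARB1, converts adenosine to inosine in double-stranded RNA, and SRSF9 belongs to the serine/arginine-rich splicing factors. The series asked how SRSF9 bears on editing at ADAR2 sites. The labels give no vector, dose or time for the overexpression, and no library with SRSF9 alone was analysed here. With 1 library per group no difference below has a replicate check and no p-value is given. The 3 pairwise comparisons share libraries, so they are not independent of each other.

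Total counts were 152878282, 132887974 and 97875935 for the control, ADAR2 and ADAR2+SRSF9 libraries. ADARB1 stood at 114 CPM (reads per 1e6 reads of the library, after TMM scaling) in the control, 16100 with ADAR2 and 13647 with ADAR2+SRSF9. SRSF9 stood at 372, 369 and 18288 CPM, so both overexpressed genes followed the labels. All 8 of the HEK293 marker genes examined, VIM, NEFM, NEFL, HOXA10, KRT8, KRT18, PAX2 and LHX1, were at 3.33 CPM or more in every library. Of 6 markers of other cells, PTPRC, CD3E, ALB and KRT5 were at 0.181 CPM or less, while COL1A1 was at 32.6 to 38.3 and CDH1 at 5.62 to 6.19 CPM.

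The mean level of the members ran from 23.1 CPM for SNRNP27 to 569 CPM for SNRNP70, and all 49 passed the minimum mean of 1 CPM that 16072 genes passed. The 49 transcripts differed little between the libraries. In the ADAR2 library against the control their log2 ratios ran from -0.28 to 0.29 with a median of 0.01, against -0.00 over the 16072 genes. In the ADAR2+SRSF9 library against the ADAR2 library they ran from -0.12 to 0.23 with a median of 0.04, against 0.01 over all genes. Against the control, the ADAR2+SRSF9 library gave -0.19 to 0.25 with a median of 0.02, against -0.01. In bulk RNA a different number of cells carrying a transcript and a different amount per cell cannot be told apart.

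**Figure D1:**
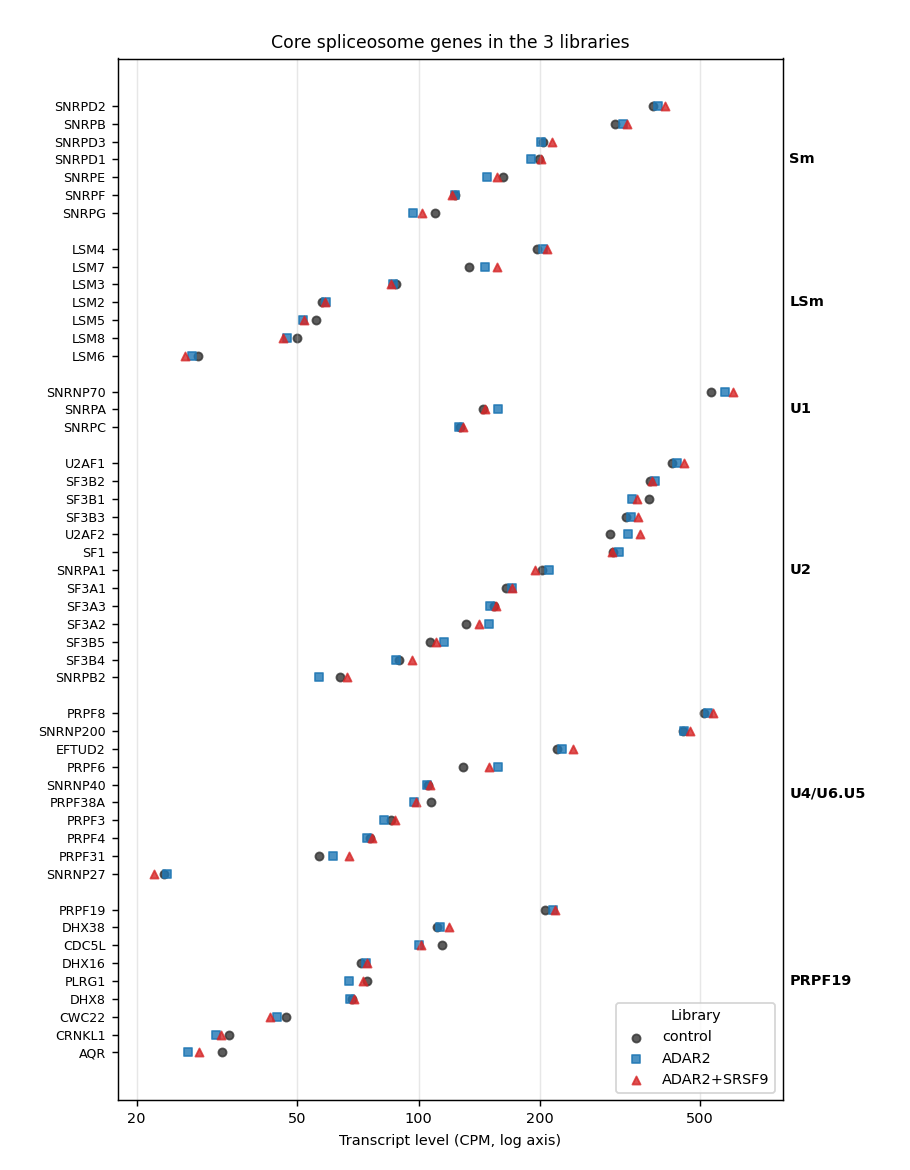
Transcript level of each of the 49 genes in the control (circles), ADAR2 (squares) and ADAR2+SRSF9 (triangles) libraries, in CPM on a log axis, grouped by complex and ordered by mean level. The 3 marks of a gene lie close together beside the range over genes, from 23.1 CPM on average for SNRNP27 to 569 CPM for SNRNP70.

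At a 1.2-fold threshold 2 members were past it, both in the ADAR2 library against the control. PRPF6 was higher, 1 of 49 members where 7.75% of all genes were as much higher, and AQR was lower, 1 of 49 where 6.79% of all genes were as much lower. Among genes with a mean of 10 CPM or more, a level that every member reached, 7.61% were past 1.2-fold in either direction, against 2 of the 49. At 1.1-fold, a threshold added after the values were seen, 3 members were higher (PRPF6, SF3A2 and U2AF2) where 23.7% of all genes were, and 7 were lower where 22.5% were. Those 7 were AQR, CDC5L, SNRPG, SNRPB2, PLRG1, SF3B1 and PRPF38A. 25 of the 49 ratios were above 0, close to the 49.8% of all genes.

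In the ADAR2+SRSF9 library against the ADAR2 library no member was 1.2-fold higher or lower, where 6.25% of all genes were higher and 8.82% lower. Of the genes with a mean of 10 CPM or more, 4.31% were past that fold in either direction, against 0 members. At 1.1-fold SNRPB2 alone was higher (1 of 49, against 17.5% of all genes) and none was lower (16.3% of all genes). Ratios above 0 numbered 35 of 49, against 53.7% of all genes. That count rested on the scaling: with plain library totals 22 of the 49 were above 0, while the median over all genes moved by -0.04.

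The ADAR2+SRSF9 library against the control likewise held no member past 1.2-fold, where 14.2% of all genes were that much higher and 13.2% that much lower. The share past that fold in either direction was 18.5% among genes with a mean of 10 CPM or more, so the members' 0 of 49 lay below it. At 1.1-fold 5 members were higher, PRPF31, U2AF2, LSM7, PRPF6 and SNRNP70, where 28.4% of all genes were. 2 were lower, AQR and CDC5L, where 27.6% of all genes were. 32 of 49 ratios were above 0 (22 with plain library totals), against 49% of all genes.

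The narrow range is also seen in the interquartile range of the log2 ratios. It was 0.111, 0.0909 and 0.148 over the members in the 3 comparisons as ordered above. Over the 7370 genes whose mean level lay within the members' own range it was 0.225, 0.120 and 0.268. With the trend of all genes with GC content taken out, as described below, the members had 0.0991, 0.0663 and 0.0974. Genes with a mean of 10 CPM or more and a GC value then had 0.127, 0.126 and 0.166. No test was made of these differences, since genes are not replicates of a condition. The 95% counting interval of a member's ratio had a median width of 0.06, 0.07 and 0.07 on the log2 scale. These exact intervals excluded equality for 35, 34 and 34 of the 49, which covers counting error only and says nothing of the spread between cultures.

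**Figure D2:**
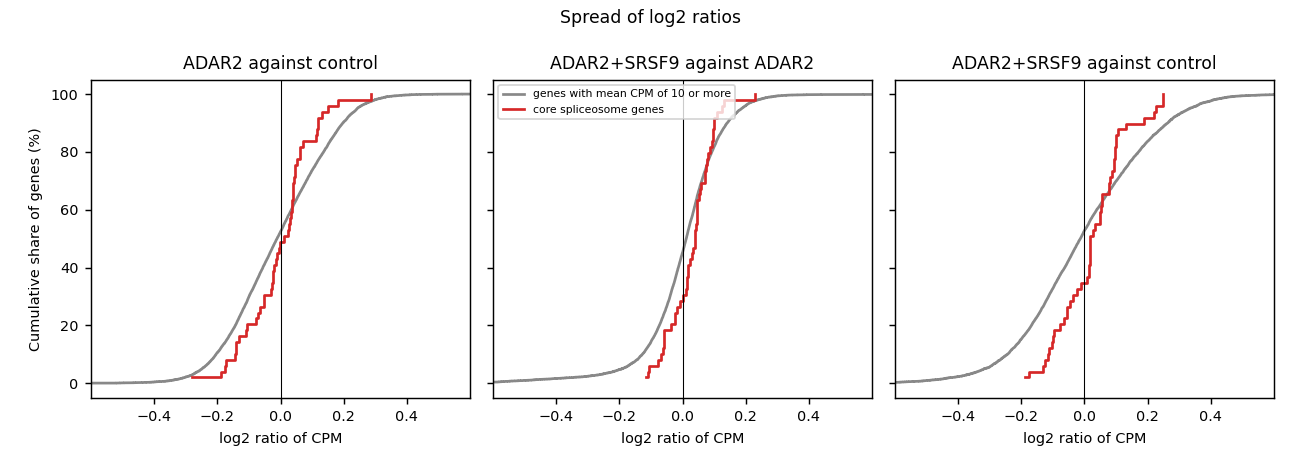
Cumulative share of genes (%) against the log2 ratio of CPM in each comparison, for the 49 core spliceosome genes (red) and for genes with a mean CPM of 10 or more (grey). The red steps climb over a shorter stretch of the axis than the grey curve, with an interquartile range of 0.111 in the ADAR2 library against the control where the grey curve has 0.229. With the GC trend removed, which is not drawn, these ranges were 0.0991 and, over genes with a GC value, 0.127.

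**Figure D3:**
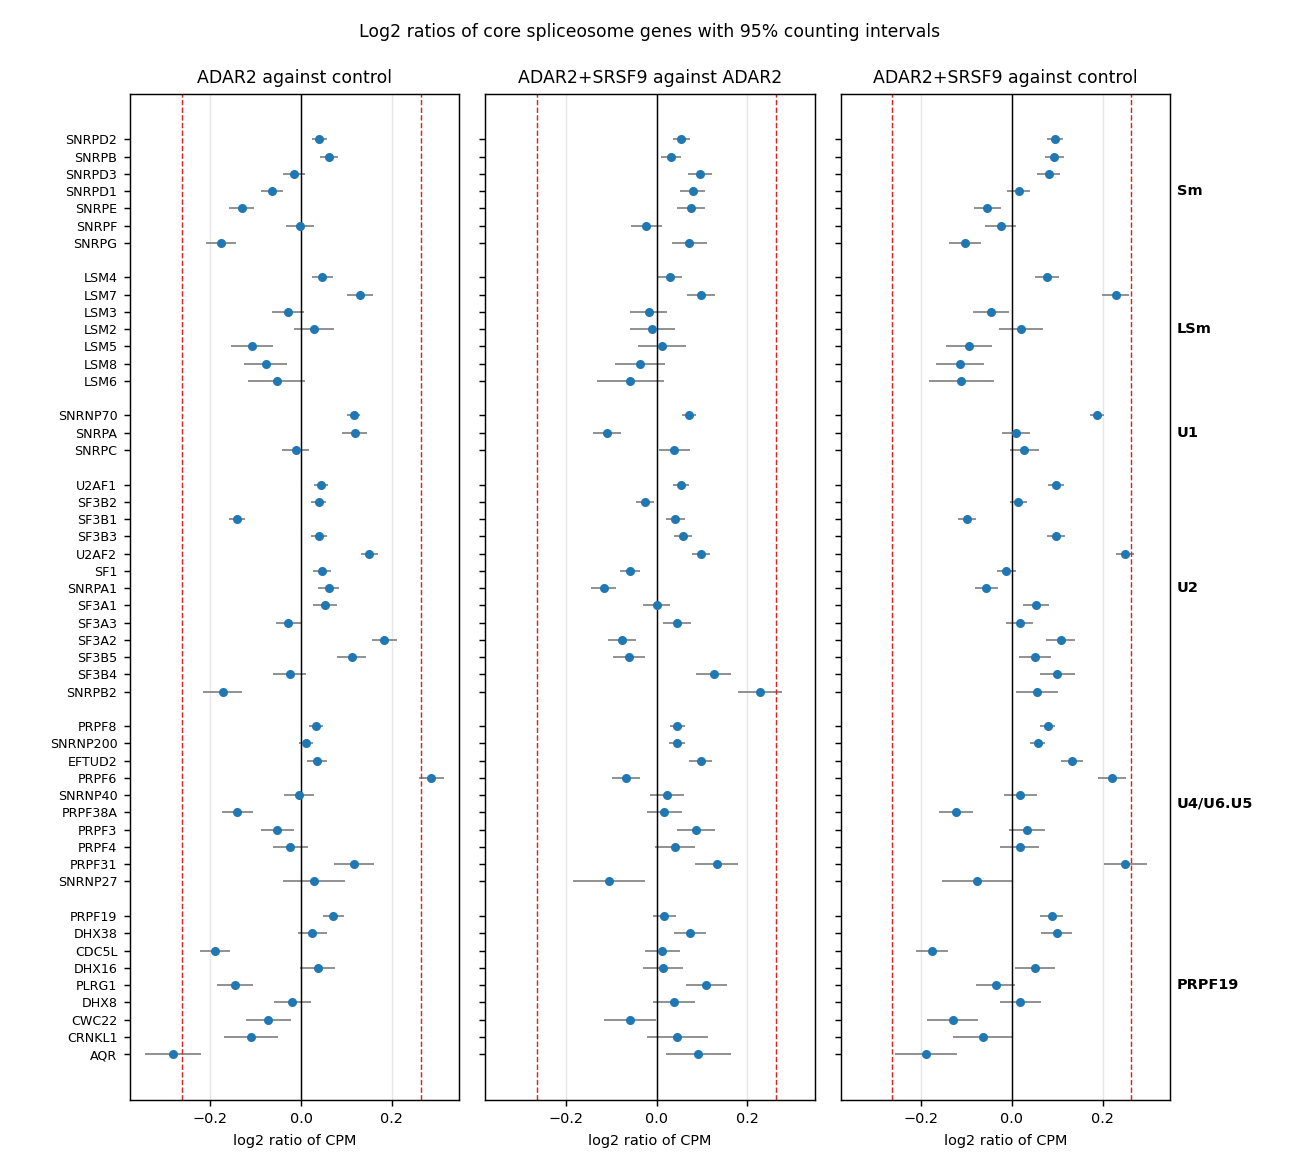
Log2 ratio of CPM for each gene in the 3 comparisons, with 95% exact counting intervals as horizontal lines and 1.2-fold as dashed lines. PRPF6 and AQR are the 2 genes whose points lie past a dashed line, both in the ADAR2 library against the control.

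Sm proteins form the ring of 7 that is loaded around the U1, U2, U4 and U5 small nuclear RNAs. SNRPD2 was the highest per kilobase, at a mean of 956 TPM (a level per kilobase of the longest annotated transcript, scaled to the same sum in each library), and SNRPD1 the lowest at 87.4 TPM. That order rests on the length used, since the coding length put SNRPF lowest at 328 TPM and the merged exon length put SNRPB highest at 713 TPM. The ring holds a single copy of each protein, and the transcripts per kilobase spanned 10.9-fold by the longest transcript and 3.46-fold by coding length.

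SNRPG, the smallest of the ring, was at 110 CPM in the control, 97.1 with ADAR2 and 102 with ADAR2+SRSF9. It was highest in the control and gave the lowest Sm ratios against it, -0.18 and -0.10. SNRPE was ordered in the same way, at 162, 148 and 156 CPM, with ratios of -0.13 and -0.05. SNRPB, which supplies the B and B' proteins, was at 308, 321 and 328 CPM and had the highest Sm ratio in the ADAR2 library against the control, 0.06. SNRPD2 was at 382, 393 and 408 CPM, lowest in the control, with the highest ratio of the ADAR2+SRSF9 library against the control, 0.09.

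From the ADAR2 to the ADAR2+SRSF9 library the Sm ratios lay between -0.02 for SNRPF and 0.10 for SNRPD3. SNRPD3, which pairs with SNRPB in the ring, was at 203, 201 and 215 CPM. SNRPF was at 123, 123 and 121 CPM, the flattest of the 7. With the GC trend described below removed, its ratios against the control were 0.17 with ADAR2 and 0.15 with ADAR2+SRSF9. SNRPD1, which pairs with SNRPD2, was at 199, 190 and 201 CPM. The medians over the 7 Sm genes were -0.02, 0.07 and 0.01 in the 3 comparisons.

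Several Sm and LSm genes have processed pseudogenes, copies of the spliced message inserted elsewhere in the genome, and reads can be split between such copies. 40 rows of the table carried the name of a numbered pseudogene of 10 of the members. They held 1.98%, 1.93% and 1.55% of the reads of these families in the control, ADAR2 and ADAR2+SRSF9 libraries. For SNRPG they held 10.9%, 11.6% and 10.5%, and for SNRPE 7.43%, 7.89% and 5.82%. The exact 95% interval for SNRPE in the ADAR2+SRSF9 library, 5.46% to 6.19%, lay below those of the other libraries. LSM3 gave 1.85%, 2.38% and 1.29%, and SNRPD2 gave 0.529%, 0.483% and 0.275%, again lowest in the ADAR2+SRSF9 library.

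How alike the copies are is shown by the start of the coding sequence of each parent beside the copies with the most reads, coding bases 1 to 90 on GRCh38 with GENCODE v29. Lower case is shared with the parent and a capital marks a base that differs from it. SNRPE lies at chr1:203861603-203870550 on the plus strand, and its copies were taken from chr19:5576849-5576938 (SNRPEP4) and chr9:6748892-6748981 (SNRPEP2), both on the minus strand. Over the 276 coding bases SNRPEP4 was 98.6% identical to the parent and SNRPEP2 97.8%.
SNRPE: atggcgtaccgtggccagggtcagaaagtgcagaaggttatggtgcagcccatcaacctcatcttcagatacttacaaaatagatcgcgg
SNRPEP4: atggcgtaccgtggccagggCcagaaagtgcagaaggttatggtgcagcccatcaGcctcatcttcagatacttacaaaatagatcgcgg
SNRPEP2: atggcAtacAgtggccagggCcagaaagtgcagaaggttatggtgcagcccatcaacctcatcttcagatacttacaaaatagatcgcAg

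SNRPG lies at chr2:70281362-70293771 on the minus strand. Its copy SNRPGP10, read from chr1:205351247-205351336 on the plus strand, was 98.2% identical over 225 aligned coding bases and differed at 1 base in this window. SNRPD2 lies at chr19:45687454-45692569 on the minus strand, and SNRPD2P1 was read from chr10:89978717-89978806 on the plus strand, with 93.4% identity over 351 bases. LSM3 lies at chr3:14178358-14201119 on the plus strand, and LSM3P3 was read from chr2:85102605-85102694 on the minus strand, with 96.1% identity over 305 bases. SNRPG is shown because its copies held the largest share of reads, and SNRPD2 and LSM3 because their copies' summed rows had low ratios of the ADAR2+SRSF9 to the ADAR2 library, given below. They were chosen after these values were seen.
SNRPG: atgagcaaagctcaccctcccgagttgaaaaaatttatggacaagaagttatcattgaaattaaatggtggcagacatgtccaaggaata
SNRPGP10: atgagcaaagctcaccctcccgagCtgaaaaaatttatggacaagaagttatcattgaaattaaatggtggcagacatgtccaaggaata
SNRPD2: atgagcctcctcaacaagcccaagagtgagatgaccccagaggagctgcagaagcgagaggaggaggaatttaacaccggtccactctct
SNRPD2P1: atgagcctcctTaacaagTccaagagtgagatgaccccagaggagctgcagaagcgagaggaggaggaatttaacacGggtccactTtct
LSM3: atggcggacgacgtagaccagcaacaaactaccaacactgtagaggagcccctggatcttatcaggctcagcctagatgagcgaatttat
LSM3P3: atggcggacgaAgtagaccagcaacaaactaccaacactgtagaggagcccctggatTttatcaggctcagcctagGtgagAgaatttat

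**Figure D4:**
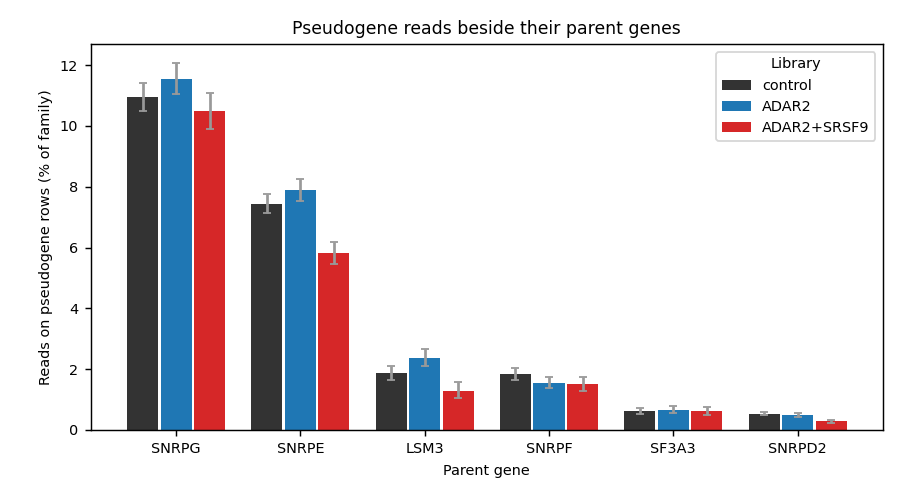
Reads on pseudogene rows as a percent of parent plus pseudogene reads, in the 3 libraries, for the 6 families with the largest shares. Bars start at 0 and lines are exact 95% binomial intervals; the SNRPG bars lie between 10.5% and 11.6%, and the SNRPE bar of the ADAR2+SRSF9 library, at 5.82%, lies below the other SNRPE bars.

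SNRPEP4 was at 7.70, 7.73 and 5.79 CPM and SNRPEP2 at 4.17, 4.19 and 3.10 CPM, so both were lowest in the ADAR2+SRSF9 library while SNRPE itself was lowest in the ADAR2 library. Summed by family, the pseudogene rows gave log2 ratios of the ADAR2+SRSF9 to the ADAR2 library that differed between families. The ratio was -0.39 for SNRPE, -0.76 for SNRPD2 (256 reads with ADAR2, 108 with ADAR2+SRSF9) and -0.91 for LSM3 (282 and 107). PRPF38A had -1.71 on 47 and 10 reads. SNRPG, whose copies held the largest share, had only -0.08, SNRPF -0.06 and SF3A3 -0.08. The copies of SNRPB, LSM6 and PRPF19 had 2 reads or fewer in either library. These ratios are given without counting intervals and do not show a fall common to all families. With its pseudogene rows added, SNRPE's own ratio in that comparison was 0.04 in place of 0.08, and for no other member did adding them move a ratio outside its counting interval. How the authors' counting treated reads that match several places is not given in the sources used here.

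LSm proteins LSM2 to LSM8 form the ring on the end of U6 RNA, and all but LSM8 also belong to a cytoplasmic ring that acts in messenger RNA decay. LSM7 had the highest level per kilobase, 446 TPM, and LSM8 the lowest, 25.9 TPM; coding length put LSM6 lowest, at 116 TPM. LSM7 was at 133.4, 146.0 and 156.3 CPM, lowest in the control and highest in the ADAR2+SRSF9 library. It gave the highest LSm ratio in each comparison, 0.13, 0.10 and 0.23, and no other LSm gene exceeded 0.08 in any of them. With the trend of all genes with GC content taken out, as described below, LSM7 was at -0.04, 0.04 and 0.01, and LSM6 was the highest in the ADAR2 library against the control at 0.08. LSM7 shares exon sequence with SPPL2B on the opposite strand, whose reads amounted to 51.2% of its own, and whether the counting used strand is not given in the sources used here.

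LSM5, LSM6 and LSM8 were highest in the control. LSM5 was at 55.7, 51.7 and 52.1 CPM, with the lowest ratio in the ADAR2 library against the control, -0.11. LSM6, at 28.4, 27.4 and 26.3 CPM, had the lowest ratio of the ADAR2+SRSF9 to the ADAR2 library, -0.06. LSM8 was at 49.8, 47.2 and 46.0 CPM and gave -0.11 in the ADAR2+SRSF9 library against the control. LSM2, LSM3 and LSM4 kept all 3 of their ratios between -0.05 and 0.08. The 7 LSm medians were -0.03, -0.01 and -0.05.

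U1 recognises the start of the intron. Its 3 proteins are SNRNP70 and SNRPA, which bind stem-loops of U1 RNA, and SNRPC, which steadies the pairing of U1 with the splice site. SNRNP70 was the most abundant at 386 TPM and SNRPA the least at 201 TPM, an order that coding length kept. SNRNP70 was at 530, 575 and 604 CPM, lowest in the control and highest in the ADAR2+SRSF9 library, with ratios of 0.12, 0.07 and 0.19. With the trend of all genes with GC content taken out, as described below, these were -0.06, -0.00 and -0.06, so the direction against the control turned. SNRPA was at 145, 157 and 146 CPM, highest in the ADAR2 library, with ratios of 0.12, -0.11 and 0.01. The ratios of SNRNP70 and SNRPA thus differed by -0.00 in the ADAR2 library against the control and by 0.18 in the ADAR2+SRSF9 library against the ADAR2 library. SNRPC, at 127, 126 and 129 CPM, had ratios between -0.01 and 0.04. Reads of C19orf54, which overlaps SNRPA on the opposite strand, amounted to 25.8% of SNRPA's.

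The snRNAs themselves are short and were mostly at low counts in these libraries. The 4 near-identical U1 genes RNU1-1 to RNU1-4 together had 443, 190 and 781 reads in the control, ADAR2 and ADAR2+SRSF9 libraries, or 2.87, 1.42 and 8.15 CPM. The ADAR2 library was 0.494-fold the control (95% counting interval 0.414 to 0.586), and the ADAR2+SRSF9 library was 5.76-fold the ADAR2 library (4.91 to 6.78) and 2.84-fold the control (2.53 to 3.20). These intervals take each read as counted once. How reads matching several of the 4 genes were counted is not given, so the intervals may be too narrow. The 22 matched snRNA rows together, these 4 included, gave ratios nearer to equality, 0.697-fold, 2.06-fold and 1.43-fold in the same comparisons. They held 1690, 1024 and 1504 reads, of which the 4 U1 genes gave the 443, 190 and 781 above. The pooled ratios thus rest in large part on U1 and do not describe the snRNAs in general. The U6 rows shared the pattern of U1 in part. In the ADAR2 library RNU6-1, RNU6-2, RNU6-7, RNU6-8 and RNU6-9 were at 0.643-fold, 0.742-fold, 0.618-fold, 0.848-fold and 0.776-fold the control. The ADAR2+SRSF9 library was at 1.34-fold, 1.18-fold, 1.17-fold, 1.47-fold and 0.959-fold the ADAR2 library. Of these, only the counting interval of RNU6-8 excluded equality (1.16 to 1.86). Against the control it was at 0.858-fold, 0.878-fold, 0.722-fold, 1.25-fold and 0.744-fold in the ADAR2+SRSF9 library. RNU6-9, the U6 row with the most reads, had 353, 238 and 163 reads. The U1 protein gene that differed most between any 2 libraries was SNRNP70, at 1.14-fold.

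U2 and its partners recognise the branch site and the end of the intron. Among their 13 genes SF3B5, a small subunit of SF3B, was the highest per kilobase at 350 TPM and SNRPB2 the lowest at 55.5 TPM. With coding length, U2AF1 was highest at 623 TPM and SF3A1 lowest at 72.3 TPM. The U2 medians were 0.04, 0.04 and 0.05 in the 3 comparisons.

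SNRPB2 (chr20:16729961-16742563, GRCh38, plus strand) and SNRPA1 (chr15:101281510-101295282, minus strand) encode the proteins that bind U2 RNA as a pair. SNRPB2 was at 63.9 CPM in the control, 56.7 with ADAR2 and 66.4 with ADAR2+SRSF9. Its ADAR2 library value was the lowest, at 0.887-fold the control (0.861 to 0.914), and the ADAR2+SRSF9 library was 1.17-fold the ADAR2 library (1.13 to 1.21), the highest ratio of any member in that comparison. SNRPA1 ran the other way, at 202, 211 and 194 CPM, highest in the ADAR2 library. Its ADAR2+SRSF9 library was 0.922-fold the ADAR2 library (0.905 to 0.940), the lowest ratio of any member there. The log2 ratios of the pair thus stood -0.23, 0.34 and 0.11 apart (SNRPB2 minus SNRPA1). With the GC trend described below removed, SNRPB2 remained at 0.23 and SNRPA1 at -0.12 in the ADAR2+SRSF9 library against the ADAR2 library. The ratios against the control did not hold. SNRPB2 went from -0.17 to -0.01 with ADAR2 and from 0.06 to 0.23 with ADAR2+SRSF9. SNRPA1 went from 0.06 to 0.19 and from -0.06 to 0.08.

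SF3A2, a subunit of the SF3A complex that joins U2, was at 131 CPM in the control, 149 with ADAR2 and 142 with ADAR2+SRSF9. It had the highest U2 ratio in the ADAR2 library against the control, 0.18, and lies on the opposite strand to PLEKHJ1, whose reads amounted to 57.9% of its own. With the GC trend removed that ratio was -0.01, and the ratio of the ADAR2+SRSF9 library against the control went from 0.11 to -0.16. SF3A1 and SF3A3, its partners, had ratios of 0.05 and -0.03 in the ADAR2 library against the control, before that removal. SF3B1, the protein that clasps the branch site helix, was at 372, 338 and 348 CPM, highest in the control, and gave the lowest U2 ratio in the ADAR2+SRSF9 library against the control, -0.10. Its partner SF3B3 was at 327, 336 and 350 CPM, lowest in the control. The ratios of the 2 genes stood -0.18, -0.02 and -0.20 apart (SF3B1 minus SF3B3) in the 3 comparisons. With the GC trend removed they lay closer against the control. SF3B1 was then at -0.01 and SF3B3 at 0.06 with ADAR2, and at 0.03 and 0.12 with ADAR2+SRSF9.

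U2AF2, which binds the polypyrimidine tract, was at 298, 331 and 354 CPM, lowest in the control and highest in the ADAR2+SRSF9 library. Its ratio in the ADAR2+SRSF9 library against the control was 0.25, the highest of the U2 group, or 1.19-fold (1.171 to 1.205). U2AF1, which reads the end of the intron beside it, was at 426, 439 and 455 CPM in the same order, with a ratio of 0.10. SF1, which holds the branch site before U2 arrives, was at 304, 314 and 301 CPM. SF3B4 was at 89.7, 88.1 and 96.1 CPM, with a ratio of 0.13 of the ADAR2+SRSF9 to the ADAR2 library, the highest in the group after SNRPB2. SF3B2 and SF3B5 kept their ratios between -0.06 and 0.11.

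The U4/U6.U5 tri-snRNP brings in the RNAs of the catalytic centre. PRPF8, its largest protein and the scaffold of that centre, was the highest of the 10 per kilobase at 154 TPM, and SNRNP27 the lowest at 28.0 TPM. With coding length the extremes were PRPF38A at 110 TPM and PRPF31 at 42.0 TPM. The medians over the 10 genes were 0.02, 0.04 and 0.05.

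PRPF6 (chr20:63981135-64033100, plus strand), which bridges U5 to U4/U6, was at 129 CPM in the control, 157 with ADAR2 and 150 with ADAR2+SRSF9. Both libraries with overexpression were above the control. The ADAR2 library was 1.22-fold the control (1.197 to 1.244), the highest ratio of all members, and the ADAR2+SRSF9 library 1.16-fold (1.14 to 1.19). PRPF31, which holds U4 and U6 together with PRPF3 and PRPF4, was at 56.6, 61.4 and 67.3 CPM. It was highest in the ADAR2+SRSF9 library, at 1.19-fold the control (1.15 to 1.23), the highest ratio of any member in that comparison. TFPT, on the opposite strand, had reads amounting to 25.4% of those of PRPF31.

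3 proteins make up the heart of U5, and all had their highest level in the ADAR2+SRSF9 library. PRPF8 was at 510, 522 and 539 CPM. SNRNP200, the helicase that unwinds U4 from U6, was at 453, 456 and 471 CPM, and its ratios differed from those of PRPF8 by 0.02, 0.00 and 0.02. EFTUD2, the GTPase of U5, was at 221, 226 and 242 CPM, with ratios of 0.04, 0.10 and 0.13, the largest of the 3 genes in each comparison.

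PRPF38A, a protein needed to activate the spliceosome, was at 107, 97.2 and 98.3 CPM, highest in the control, with the lowest ratios of the group against it, -0.14 and -0.12. SNRNP27 was at 23.3, 23.8 and 22.1 CPM, with the lowest ratio of the ADAR2+SRSF9 to the ADAR2 library, -0.10. It shares exons with MXD1 on the same strand, and MXD1 reads amounted to 58.2% of its own. PRPF3, PRPF4 and SNRNP40 kept their ratios between -0.05 and 0.09.

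The PRPF19 complex and the later helicases shape the active site and drive both chemical steps. PRPF19, a ubiquitin ligase and the core of the complex, was the highest per kilobase at 216 TPM and AQR the lowest at 6.59 TPM, the lowest of all 49 members as well. Both extremes held with coding length. The medians over the 9 genes were -0.07, 0.04 and -0.04.

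AQR (chr15:34851782-34969839, minus strand), a helicase that binds the intron upstream of the branch site, was at 32.5 CPM in the control, 26.8 with ADAR2 and 28.5 with ADAR2+SRSF9. Both libraries with overexpression were below the control. The ADAR2 library was 0.823-fold the control (0.788 to 0.859) and the ADAR2+SRSF9 library 0.877-fold (0.837 to 0.919), the lowest ratio of any member in each of these comparisons. CDC5L, a scaffold of the complex, was at 114, 100 and 101 CPM and gave 0.877-fold (0.858 to 0.897) and 0.885-fold (0.863 to 0.907) in the same comparisons. PLRG1, another core subunit, was at 74.5, 67.4 and 72.7 CPM and had the highest ratio of these 9 genes of the ADAR2+SRSF9 to the ADAR2 library, 0.11.

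PRPF19 was at 205, 216 and 218 CPM, the highest of these 9 ratios in the ADAR2 library against the control at 0.07. CWC22, which recruits the exon junction complex, was at 46.9, 44.6 and 42.9 CPM and had the lowest ratio of the ADAR2+SRSF9 to the ADAR2 library, -0.06. DHX38, the helicase that acts between the chemical steps, was at 111, 113 and 119 CPM and had the highest ratio in the ADAR2+SRSF9 library against the control, 0.10. DHX16, which acts before the first step, and DHX8, which releases the spliced message, had ratios between -0.02 and 0.05. CRNKL1 was at 33.9, 31.4 and 32.4 CPM, with ratios of -0.11, 0.05 and -0.06.

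Members with GC-rich transcripts had the higher ratios against the control and members with GC-poor transcripts the lower. Across the 49 genes, which share these libraries and are not independent replicates, Spearman's rho between the log2 ratio and the GC content of the longest transcript was 0.79 for the ADAR2 library against the control and 0.77 for the ADAR2+SRSF9 library against the control. Over 10198 genes with a mean of 10 CPM or more it was 0.76 and 0.70, so the relation was about as close over all genes. Between the libraries with overexpression it was 0.08 over the members and 0.19 over the 10198 genes.

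Split by GC content, the 16 members at 35.4% to 41.0% GC had a median log2 ratio of -0.09 in the ADAR2 library against the control, with 2 above 0. The 17 members in between had -0.01, with 8 above 0, and the 16 at 54.9% to 66.6% had 0.09, with 15 above 0. The ADAR2+SRSF9 library against the control gave -0.10, 0.03 and 0.10 with 3, 14 and 15 above 0. AQR, CDC5L, SNRPG, SNRPB2, PLRG1, SF3B1 and PRPF38A are among the 16 of lowest GC content, and PRPF6, SF3A2, U2AF2, PRPF31, LSM7 and SNRNP70 among the 16 of highest. The ADAR2+SRSF9 library against the ADAR2 library gave 0.01, 0.05 and 0.03, with no such order.

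**Figure D5:**
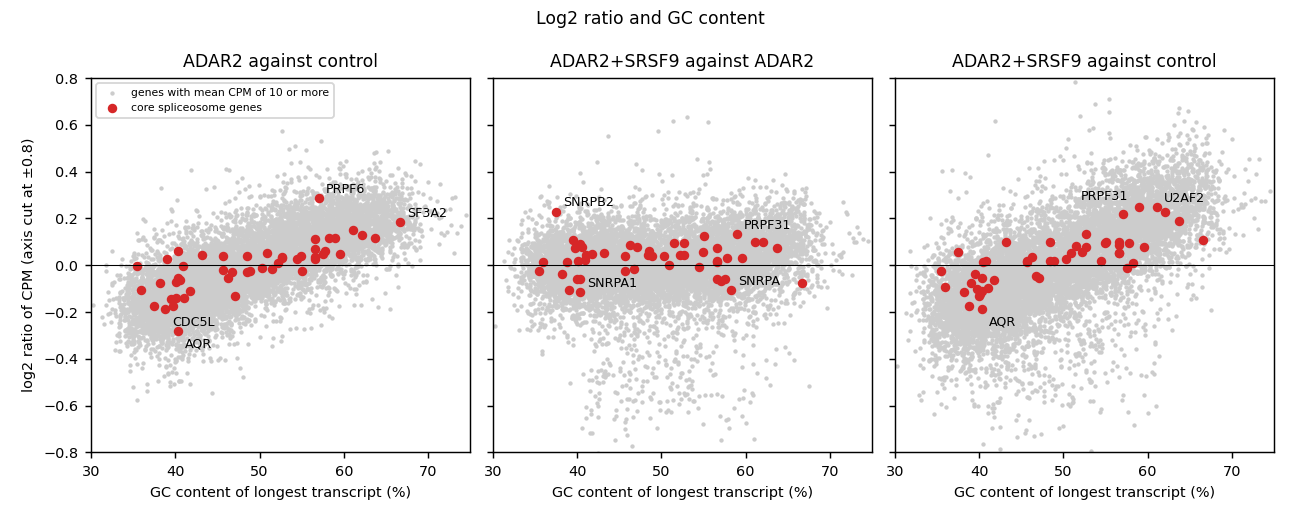
Log2 ratio of CPM against the GC content of the longest transcript (%) in each comparison, for the 49 core spliceosome genes (red) and genes with a mean CPM of 10 or more (grey, axis cut at ±0.8). In both comparisons with the control the red points climb with GC content along the grey cloud (Spearman's rho 0.79 and 0.77), and in the middle panel they do not (0.08).

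When the trend of all genes with GC content was taken out, PRPF6 went from 0.29 to 0.18 and AQR from -0.28 to -0.15 in the ADAR2 library against the control, and 0 members remained past 1.2-fold. AQR was still the lowest member there, but SNRPA1, at 0.19, was the highest in place of PRPF6. U2AF2 went from 0.25 to 0.05 and PRPF31 from 0.25 to 0.08 in the ADAR2+SRSF9 library against the control. In that comparison AQR went from -0.19 to -0.05 and PRPF6 from 0.22 to 0.09. SF3A2 was then the lowest member at -0.16 and SNRPB2 the highest at 0.23. After the correction rho over the members was -0.48 and -0.58, the opposite sign, so more was taken out than the members' own relation with GC content held. In the ADAR2 library against the control, SNRPB went from 0.06 to -0.06, PRPF19 from 0.07 to -0.03 and LSM5 from -0.11 to 0.06, and SNRPG and CDC5L from -0.18 and -0.19 to -0.04. In the ADAR2+SRSF9 library against the control, SNRPD2 went from 0.09 to -0.01, DHX38 from 0.10 to -0.03, LSM8 from -0.11 to 0.05, SF3B1 from -0.10 to 0.03 and PRPF38A from -0.12 to 0.02. The sign of the ratio differed after the correction for 28 members in the ADAR2 library against the control and 25 in the ADAR2+SRSF9 library against the control. It differed for 6 in the ADAR2+SRSF9 library against the ADAR2 library, where SNRPB2 was at 0.23 before and after it.

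The other genes of the splicing pathway were close to the control as well. Of 96 matched, 94 passed the minimum level, with medians of -0.05, 0.02 and -0.04 in the 3 comparisons. Above 0 were 30, 58 and 35 of the 94, where 49.8%, 53.7% and 49% of all genes were. None was past 1.2-fold in the ADAR2 library against the control, where 7.75% of all genes were higher and 6.79% lower. None was in the ADAR2+SRSF9 library against the ADAR2 library either, where 6.25% of all genes were higher and 8.82% lower. 3 of the 94 were higher in the ADAR2+SRSF9 library against the control, where 14.2% of all genes were, and none was lower (13.2% of all genes). None of the 94 reached 1.5-fold in any comparison.

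Those 3 were SNRNP25, ARMC7 and PRPF40B. SNRNP25, a protein of the U11/U12 particle of the minor spliceosome, was at 67.8, 78.2 and 85.4 CPM, 1.26-fold the control (1.22 to 1.30) in the ADAR2+SRSF9 library. ARMC7, from the same list, was at 16.4, 18.3 and 20.2 CPM, and PRPF40B, a U1-associated protein, at 8.12, 9.62 and 9.86 CPM. All 3 have transcripts of 59.0% to 60.3% GC, and with the GC trend removed 0 of the 92 genes with a GC value were past 1.2-fold.

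In the ADAR2 library against the control, the largest ratio in each other list was -0.17 for LSM11 among the Sm and LSm paralogs, 0.17 for CHERP among U2-associated genes and -0.17 for ZMAT2 among tri-snRNP and B complex genes. It was 0.25 for XAB2 among step factors and PRPF19-related genes, 0.25 for PRPF40B among U1-associated genes, -0.23 for RNPC3 in the minor spliceosome and -0.22 for PHAX, the export adaptor of snRNAs, in snRNP assembly. With the GC trend removed these genes, in the order named, were at -0.08, 0.01, -0.10, 0.09, 0.11, -0.06 and -0.13. In the ADAR2+SRSF9 library against the ADAR2 library the largest were LSM1 at 0.21, DHX35 at 0.20, GEMIN7 at -0.17, ARMC7 at 0.15, TIAL1 at -0.15, ZMAT2 at 0.13 and RBM17 at 0.10. LSM1 replaces LSM8 in the cytoplasmic ring, and at 13.8, 12.5 and 14.4 CPM it was lowest in the ADAR2 library. In the ADAR2+SRSF9 library against the control, beside the 3 genes above, they were XAB2 at 0.24, LSM14B at 0.24, RUVBL2 at 0.23, PUF60 at 0.21 and SART1 at 0.18. With the GC trend removed these were at 0.04, 0.13, 0.04, -0.02 and -0.01.

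Ordered by level over the 3 libraries, 16 of the 49 members were lowest in the control and highest in the ADAR2+SRSF9 library, with the ADAR2 library in between, and 5 ran in the opposite order. In 19 the ADAR2 library was lowest, 10 of them with the ADAR2+SRSF9 library highest and 9 with the control highest. In the other 9 the ADAR2 library was highest, 6 with the control lowest and 3 with the ADAR2+SRSF9 library lowest. No order held for a whole complex. The same orders were not counted over all genes. These counts also rest on the scaling and on small gaps. With plain library totals the ratio changed sign for 13 members in the ADAR2+SRSF9 library against the ADAR2 library. It changed sign for 10 in the ADAR2+SRSF9 library against the control. The counting intervals included equality for 14, 15 and 15 of the 49 members in the 3 comparisons.

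20 of the 49 share exon sequence with another annotated gene, and for 14 that gene had reads amounting to 1% or more of the member's own. The largest shares not yet given were 64.3% for XPC beside LSM3, 42.8% for GUCD1 beside SNRPD3, 31.7% for C6orf136 beside DHX16 and 31.4% for CDC26 beside PRPF4. These shares compare the reads of whole genes, and reads within the shared stretches were not counted apart. Without the strand setting of the counting, it cannot be told which gene was given the reads in those stretches. Their part in the ratios was not tested.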

How the data were processed

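RNA came from a Trizol extraction and libraries from a NEBNext Ultra Directional kit, per the labels' protocols. The table the authors deposited holds raw read counts per gene as whole numbers. Per the submitters' processing notes the build was hg19 and the tools included STAR, Picard, GATK and SAMtools; the counting program is not stated in the sources used here, nor whether it used strand. Each column was matched to its labels by library code. From the deposited counts, CPM was computed after TMM scaling (edgeR 4.0.16, R 4.3.3; factors 1.01, 1.01 and 0.979). For log2 ratios a prior count of 0.5 was added, and each fold has an exact 95% Clopper-Pearson counting interval, which covers counting error only. Reads without molecular identifiers are not independent molecules. TPM used the longest GENCODE v29 transcript (GRCh38, not the authors' build), matched on the identifier. The GC trend was the median log2 ratio in 50 bins over 9594 protein-coding genes, smoothed over 5 bins. Python 3.11.15, numpy 2.4.6, pandas 2.3.3, scipy 1.17.1 and matplotlib 3.10.9 were used, and the calculation was tested on simulated data.

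The members and the lists of other genes were chosen with earlier results of these data known. Named are, per complex and comparison, the highest and lowest ratios, any member past 1.2-fold and the extremes of level per kilobase; other members are given to account for all 49. From each other list, genes past 1.5-fold or else the largest ratio are named. Overlapping genes, partner pairs and pseudogenes were named after their values were seen. Alternatives were DESeq2 1.42.0 size factors, plain totals, upper-quartile scaling, TMM without mitochondrial genes, ADARB1 and SRSF9, a minimum of 10 CPM or none, a prior count of 5, other lengths, 1.5-fold, an interval wholly past 1, and GC trend removal. Added after seeing the data were 1.1-fold, principal transcripts, members matched by symbol alone, members above 0 under other scalings, and members with pseudogene rows added. 1 further marker of other cells is not reported here.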

Additional observations from a re-analysis of the deposited data

How the results depend on the processing

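PRPF6 and AQR, the members past 1.2-fold, kept their direction in the ADAR2 library against the control under every setting tried. Ratios near 0 did not: with plain totals the sign differed for 0, 13 and 10 members in the 3 comparisons, and with the GC trend removed for 28, 6 and 25. With the GC trend removed, by longest or principal transcript, and at 1.5-fold, 0 members were past the threshold in the ADAR2 library against the control, in place of 2; at 1.1-fold, chosen after seeing the data, there were 10, with 1 in the ADAR2+SRSF9 library against the ADAR2 library and 7 in it against the control, in place of 0 and 0. Plain library totals gave members' medians of -0.0053 in the ADAR2+SRSF9 library against the ADAR2 library, where all genes had -0.03, with 22 members above 0 in place of 35, and -0.026 against the control, where all genes had -0.05. The 3 other splicing genes past 1.2-fold in the ADAR2+SRSF9 library against the control became 0 at 1.5-fold and 0 with the GC trend removed. The highest level per kilobase over the lowest was 145.0-fold by longest transcript, 115.5-fold by merged exons and 169.6-fold by coding length. Pseudogene rows with a mean of 1 CPM or more held 3.43%, 3.39% and 2.71% of the reads of their 5 families, in place of 1.98%, 1.93% and 1.55% over 10. Of 147 ratios of single members, 98 moved outside their counting interval with the GC trend removed and 76 with plain totals, against 8 with TMM without mitochondrial genes, ADARB1 and SRSF9, 1 with DESeq2 size factors, and 0 with upper-quartile scaling or a prior count of 5. No paired analysis was possible because each group has 1 library. The limit of all these values is the single library per group: counting intervals are narrow at this depth and do not hold the spread between cultures.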
